A study of Mus musculus with 6 samples.

Results

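The genes described here are 32 genes of stromal fibroblasts and of the extracellular matrix other than collagens, found by gene name in a table of 44065 genes from mouse testis. All 32 names were matched, each to 1 gene of the table, on 15 chromosomes. They comprise receptors and a surface protein of fibroblasts, transcription factors of interstitial progenitors, small leucine-rich proteoglycans, elastic fibre and microfibril proteins, adhesive and basement membrane proteins, inhibitors of proteases, and several other secreted or cellular proteins. Total RNA of whole testes, after removal of ribosomal RNA, was sequenced from male C57BL/6 mice. They entered the study at 6 weeks of age and were exposed for 10 weeks. The control group (CT) and the sedentary group (ST) had 3 libraries each, called biological replicates in the labels, and the labels name no transgene or engineered allele in either. How sedentary behaviour was imposed is not given in the sources used here. Another group, with physical activity as compensation (CS), was not analysed here. Going by its title, the study is about sperm DNA damage and how the testis regulates its temperature. The values below set the transcripts of these genes in sedentary testes beside those in controls.

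In the testis, fibroblasts and other stromal cells lie between the seminiferous tubules and in the capsule, beside Leydig cells, vessels and macrophages, and around the myoid layer of the tubules. They secrete the matrix: proteoglycans such as decorin and biglycan bind collagen fibrils and growth factors, fibrillin and elastin form elastic fibres, and laminins and nidogen form basement membranes. Platelet-derived growth factor (PDGF) receptors mark stromal cells, and PDGF receptor alpha signalling and the transcription factors Tcf21 and Nr2f2 are known from fetal interstitial cells, some of which give rise to Leydig cells.

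Values are FPKM, by name fragments per kilobase of gene length, scaled to a total for each library. The whole reads behind the FPKM values could be recovered, and came to between 28495596 and 38148228 per library. The totals implied by the values were 1.04, 1.0 and 1.06 times the recovered reads in control replicates 1, 2 and 3. In sedentary replicates 1, 2 and 3 they were 0.953, 0.991 and 0.992 times the recovered reads. Small differences between the groups therefore depend on this scaling. The members had between 155 and 43207 reads each over the 6 libraries, and none was at 0 in any library. The other cell types of the tissue were visible in the same libraries: summed over a list of markers, elongating spermatids stood at 25414.3 to 30114.9 FPKM in control and 32634.0 to 34999.0 FPKM in sedentary libraries, and Sertoli cells at 871.9 to 962.6 and 1072.6 to 1230.7 FPKM. In a whole tissue, fewer cells of a type and less RNA per cell cannot be told apart.

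Most members had lower levels in the sedentary than in the control testes, but few passed a test. In limma's moderated test on log2(FPKM + 0.5), over the 19201 genes that reached 0.5 FPKM in 3 or more of the 6 libraries, 0 of the 28 tested members passed an adjusted p of 0.05, against 5 of all genes, or 0.026%. At an unadjusted p under 0.05 the same test gave 5 of the 28 members lower and 1 higher. Of all 19201 genes it gave 1394 lower and 1947 higher, or 3341 in either direction. With voom, the limma method for counts, 2 of the 28 tested members passed on the recovered reads, Pdgfra and Bgn, and both fell. That is 7.14%, against 1.44% of all genes in either direction and 1.12% lower. The median log2 fold change of the tested members, sedentary minus control, was -0.24 by limma on FPKM, and that of all tested genes 0.01. Of the 28, 24 lay below 0 and 4 above 0, between -0.49 and 0.35.

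The filter on low values bears on these counts. The members Pdgfrb, Thy1, Fbln2 and Lama4 did not reach it and were not tested. Fbn1 reached it through the controls alone, Eln in 2 of the 3 sedentary libraries, and Dpt in 2 of the 3 controls. The other 25 tested members reached it in all 6 libraries. A count over the tested members is therefore not independent of the difference. Over all 32 members with no filter, the median log2 fold change was -0.22, and over all genes with no filter -0.01.

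**Figure D1:**
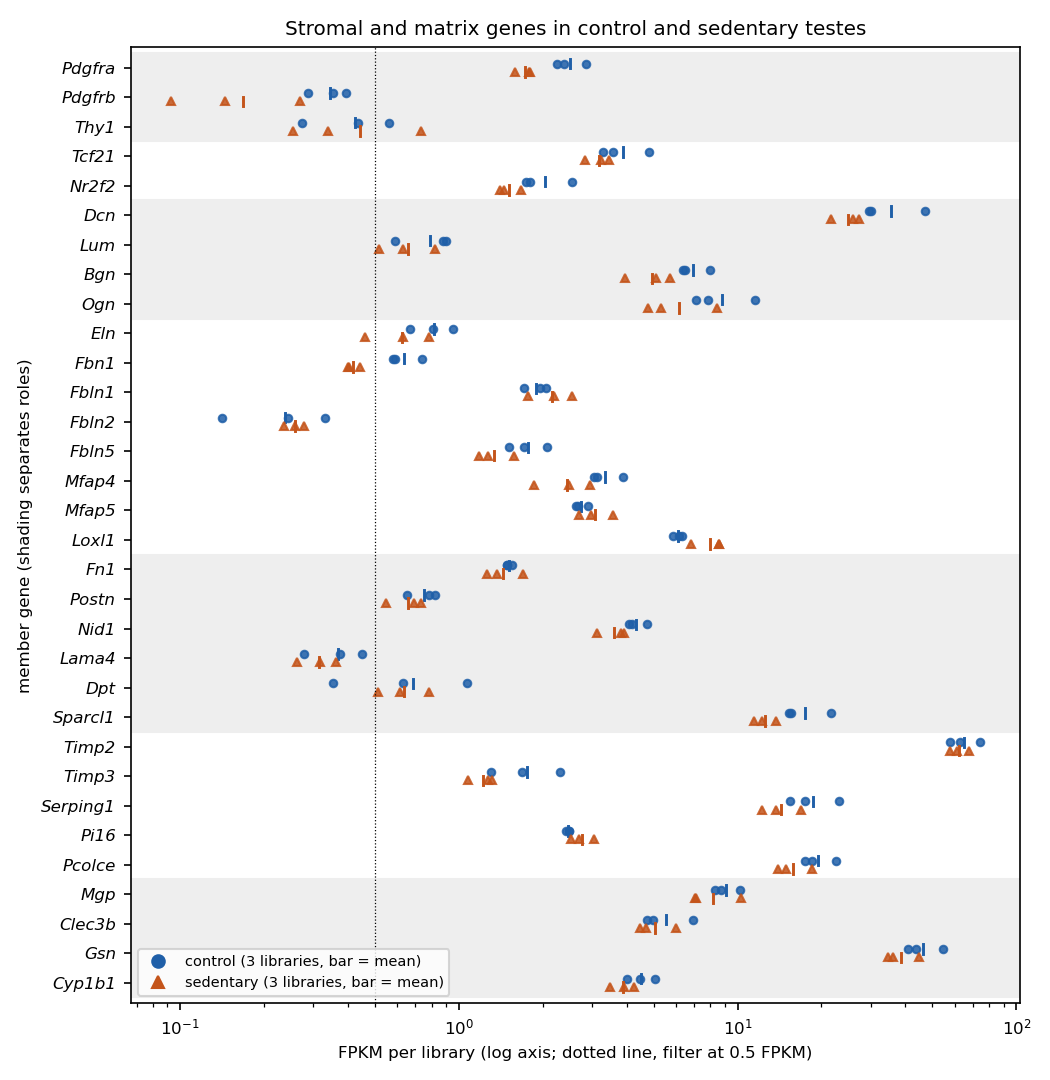
FPKM of the 32 members in each library, on a log axis, with circles for the 3 control and triangles for the 3 sedentary libraries and a bar at each group mean. Genes are grouped by role, and the dotted line is the filter at 0.5 FPKM. Timp2, Gsn and Dcn have the highest levels, and Pdgfrb, Thy1, Fbln2 and Lama4 lie mostly below the filter.

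One library, control replicate 3, stood apart in these genes and in several related lists. It was the highest of the 6 libraries in 19 of the 28 tested members, or 67.9%, against 21.8% of all tested genes. Relative to each gene's mean over the 6 libraries, the median of the tested members on the log2 scale was 0.00, 0.04 and 0.35 in control replicates 1, 2 and 3. It was -0.16, -0.16 and -0.01 in sedentary replicates 1, 2 and 3. Control replicates 1 and 2 were thus close to sedentary replicate 3. Without control replicate 3 the median log2 fold change of the tested members was -0.17, and without any other single library it was between -0.30 and -0.21. Of the tested members, 20 lay below 0 and 4 above 0 in all 6 fits on FPKM that each left out 1 library.

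**Figure D2:**
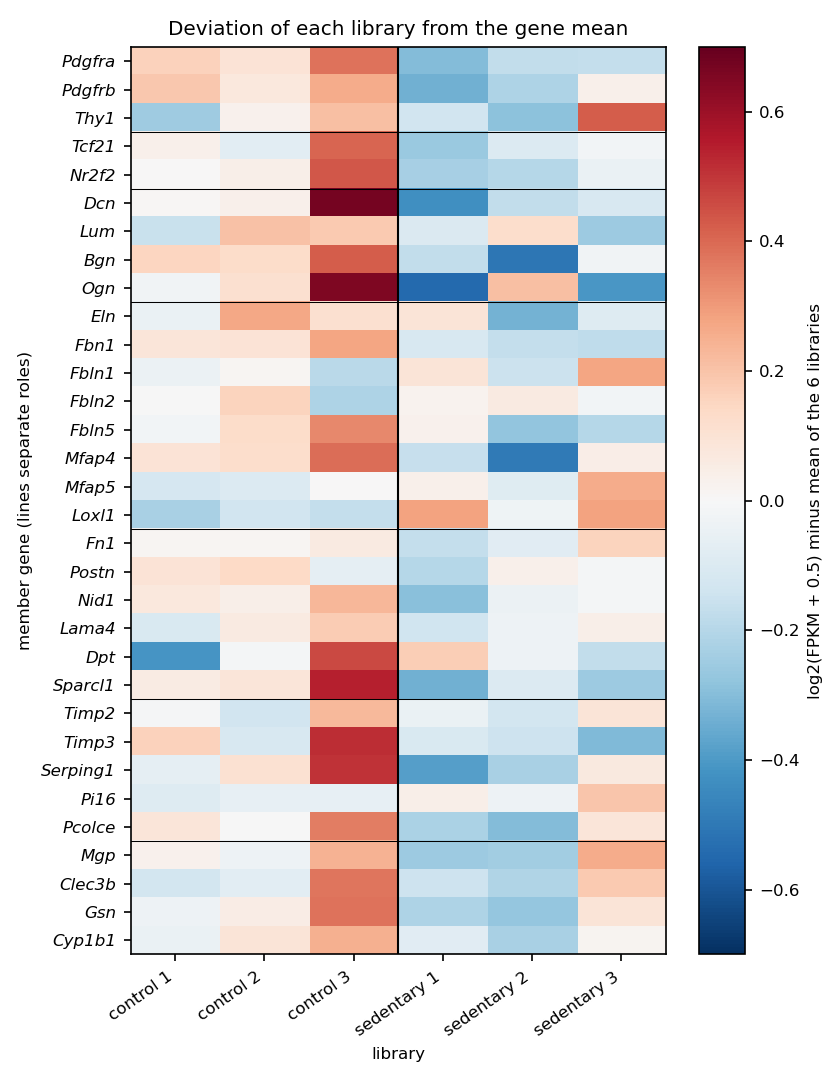
Deviation of each library from the gene's mean over 6 libraries, as log2(FPKM + 0.5), for the 32 members grouped by role; red is higher and blue lower, and the vertical line separates control from sedentary libraries. Control replicate 3 is the highest library for most members, while Pi16, Mfap5 and Fbln1 are highest in sedentary replicate 3.

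In 8 of the 28 tested members all 3 sedentary libraries lay below all 3 controls, or 28.6%, against 10.8% of all tested genes. These were Pdgfra, Nr2f2, Dcn, Bgn, Fbn1, Mfap4, Nid1 and Sparcl1. Fbn1 passed the filter through the controls alone, so its place among the 8 was fixed by the filter. The members were also chosen with earlier results of these data known, so the share is a description and not a test. In 2 members, Loxl1 and Pi16, all 3 sedentary libraries lay above the controls, or 7.14%, against 13.7% of all tested genes. Among the 4 members that were not tested, Pdgfrb also had groups that did not overlap.

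Among the receptors, Pdgfra, which encodes PDGF receptor alpha and marks fibroblasts, fell on the reads. It stood at 2.38, 2.26 and 2.86 FPKM in control replicates 1, 2 and 3 and at 1.59, 1.79 and 1.80 FPKM in sedentary replicates 1, 2 and 3. All 3 sedentary libraries were below the lowest control, and the highest control was replicate 3. On 2533 control and 1823 sedentary reads, the log2 fold change was -0.53 by voom (SE 0.12, adjusted p = 0.0329). By limma on FPKM it was -0.43 (SE 0.12, adjusted p = 0.207). The call on the reads was lost without control replicate 1 (adjusted p = 0.0857) or 3 (0.164) and without sedentary replicate 1 (0.120) or 3 (0.113). After correction of each library for its trend with GC content and length, the log2 fold change on the reads was -0.45 and the adjusted p 0.0461.

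Pdgfrb encodes PDGF receptor beta, found on pericytes and fibroblasts, and was 1 of the lowest members. It stood at 0.354, 0.288 and 0.396 FPKM in the controls and at 0.093, 0.145 and 0.269 FPKM in the sedentary libraries, in replicate order. The groups did not overlap, on 193 control and 97 sedentary reads. In the fit with no filter its log2 fold change was -0.35 with an adjusted p of 0.357 by limma. Thy1, a surface glycoprotein of fibroblasts and T cells, had a mean of 0.425 ± 0.145 FPKM among controls and 0.443 ± 0.256 FPKM among sedentary libraries (SD, n = 3), and its groups overlapped. Of the 4 PDGF ligand genes, all tested, 0 were called on FPKM or on the reads, and their median log2 fold change was 0.01, between -0.06 and 0.05 with 1 library left out. Pdgfa, the most abundant of the ligands, stood at 3.78 ± 0.516 and 4.25 ± 0.549 FPKM.

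Both transcription factors had 0 calls on FPKM and on the reads. Nr2f2, a nuclear receptor of interstitial mesenchyme also called COUP-TFII, stood at 1.75, 1.81 and 2.54 FPKM in the controls and at 1.41, 1.46 and 1.68 FPKM in the sedentary libraries. The groups did not overlap, but the gap between the lowest control and the highest sedentary library was small beside the distance of control replicate 3 from the other controls. Its log2 fold change was -0.32 by limma (SE 0.15, adjusted p = 0.306), and -0.18 without control replicate 3. Tcf21, a helix-loop-helix factor of stromal progenitors, stood at 3.90 ± 0.800 and 3.18 ± 0.309 FPKM (SD, n = 3), with overlapping groups and an adjusted p of 0.396 by limma. Its log2 fold change was -0.25, between -0.34 and -0.10 with 1 library left out.

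All 4 small leucine-rich proteoglycans lay below 0, and Bgn fell on the reads. Bgn encodes biglycan, which binds collagen and signals through innate immune receptors. It stood at 6.5, 6.39 and 7.96 FPKM in control replicates 1, 2 and 3 and at 5.11, 3.95 and 5.71 FPKM in sedentary replicates 1, 2 and 3. The groups did not overlap, with sedentary replicate 2 the lowest library. On 4268 control and 3125 sedentary reads, the log2 fold change was -0.51 by voom (SE 0.13, adjusted p = 0.0465), and by limma on FPKM -0.47 (SE 0.14, adjusted p = 0.207). On the reads the call held without control replicate 2 (adjusted p = 0.0180) and was lost without any other library. These adjusted p were 0.109 and 0.226 without control replicate 1 and 3, and 0.104, 0.0856 and 0.0861 without sedentary replicate 1, 2 and 3. With the GC and length trend removed it was called, at -0.53 and an adjusted p of 0.0370, but over the same genes before removal the adjusted p was 0.0519.

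Dcn encodes decorin, which coats collagen fibrils and binds transforming growth factor beta, and was among the most abundant members. It stood at 29.6, 30.1 and 47.0 FPKM in the controls and at 21.7, 26.0 and 27.2 FPKM in the sedentary libraries. Control replicate 3 lay far above the other controls, and the other 2 controls lay just above the highest sedentary library. The log2 fold change was -0.48 by voom (SE 0.14, adjusted p = 0.0753), and -0.26 without control replicate 3 (adjusted p = 0.323). Removal of the GC and length trend gave -0.31 on the reads, with an adjusted p of 0.211.

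Ogn, which encodes osteoglycin or mimecan, stood at 7.08, 7.81 and 11.6 FPKM in the controls and at 4.77, 8.42 and 5.30 FPKM in the sedentary libraries. The groups overlapped because of sedentary replicate 2. Its log2 fold change of -0.49 was the lowest of the tested members by limma (SE 0.23, adjusted p = 0.307), and was -0.29 without control replicate 3 and -0.72 without sedentary replicate 2. Ogn lies within the gene model of Cenpp on the opposite strand, a gene with group means of 30.6 and 27.0 FPKM. Whether reads were counted by strand is not given in the sources used here, so reads of the 2 genes may be mixed. Lum, which encodes lumican, stood at 0.791 ± 0.174 and 0.660 ± 0.154 FPKM (SD, n = 3), on 155 control and 139 sedentary reads, and its groups overlapped. Dcn was thus far more abundant than Lum, at 30.2 against 0.725 FPKM over all libraries.

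Of 11 other genes of this proteoglycan family 7 were tested, and all 7 lay below 0, with a median of -0.09 that ranged from -0.19 to -0.07 with 1 library left out. On FPKM 0 were called, and on the reads 1, Tsku, which encodes tsukushi, fell from 3.05 ± 0.481 to 1.95 ± 0.102 FPKM (SD, n = 3, voom adjusted p = 0.0480). That call held without control replicate 2 and was lost without any other library, with adjusted p of up to 0.226. Epyc, which encodes epiphycan and is the most abundant of them, stood at 11.1 ± 0.568 and 10.6 ± 1.65 FPKM.

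To show the DNA next to the starts of these genes, promoters of 4 members are printed, from 250 bases before to 50 bases after the start, as RefSeq gives them on GRCm38.p6. Pdgfra and Bgn were called on the reads. Among the members with 1 promoter entry that were not called, Fbn1 had the lowest and Pi16 the highest log2 fold change on the reads. Capitals mark 5 motifs, which were searched on both strands. The E-box bound by many helix-loop-helix factors was searched as CAGCTG. The half-site bound by many nuclear receptors was searched as AGGTCA. The site of AP-1, the dimer of Fos and Jun, was searched as TGANTCA. The core promoter element known as the TATA box was searched as TATAAA. The GC box, bound by factors of the Sp family, was searched as GGGCGG. Both the E-box and the AP-1 letters read the same on either strand, and overlapping GC boxes run together. The promoters lie at chr5:75152001-75152300 on the plus strand for Pdgfra, chrX:73483351-73483650 on the plus strand for Bgn, chr2:125506389-125506688 on the minus strand for Fbn1 and chr17:29318632-29318931 on the plus strand for Pi16.
Pdgfra: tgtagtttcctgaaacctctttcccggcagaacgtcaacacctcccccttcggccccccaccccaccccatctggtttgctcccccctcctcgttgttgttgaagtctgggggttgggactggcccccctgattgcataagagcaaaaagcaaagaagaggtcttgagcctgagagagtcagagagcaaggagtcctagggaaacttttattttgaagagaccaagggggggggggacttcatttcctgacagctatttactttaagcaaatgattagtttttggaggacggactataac
Bgn: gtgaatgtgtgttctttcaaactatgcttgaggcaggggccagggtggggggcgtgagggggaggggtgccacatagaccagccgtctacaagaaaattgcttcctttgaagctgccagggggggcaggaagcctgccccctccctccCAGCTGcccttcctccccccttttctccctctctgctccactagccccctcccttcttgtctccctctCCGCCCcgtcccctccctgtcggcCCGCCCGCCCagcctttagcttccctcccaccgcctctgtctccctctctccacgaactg
Fbn1: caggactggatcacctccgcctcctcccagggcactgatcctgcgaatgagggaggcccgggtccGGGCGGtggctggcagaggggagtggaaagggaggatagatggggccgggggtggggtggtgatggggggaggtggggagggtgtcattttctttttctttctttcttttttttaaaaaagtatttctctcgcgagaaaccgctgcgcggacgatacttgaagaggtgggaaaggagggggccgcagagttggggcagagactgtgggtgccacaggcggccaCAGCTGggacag
Pi16: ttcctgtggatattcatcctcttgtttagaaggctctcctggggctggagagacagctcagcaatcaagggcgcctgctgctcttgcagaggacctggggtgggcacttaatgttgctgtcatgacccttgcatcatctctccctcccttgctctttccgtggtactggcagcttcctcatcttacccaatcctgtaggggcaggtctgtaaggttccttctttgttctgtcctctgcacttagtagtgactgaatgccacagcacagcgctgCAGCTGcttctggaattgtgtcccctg

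None of the motifs was found in the Pdgfra window, 4 matches in that of Bgn, 2 in that of Fbn1 and 1 in that of Pi16. RefSeq held 23 promoters for 18 of the 32 members. CAGCTG was in 11 of the 23, or 47.8%, against 16.3% of all 32851 promoters. GGGCGG was in 13, or 56.5%, against 35.7% of all promoters. AGGTCA was in 3, or 13%, against 16.3%. TATAAA was in 3, or 13%, against 13.6%, and TGANTCA was in 0 against 7.81%. The median GC content was 58.3% in the members' promoters and 52.7% in all promoters, and several of the 23 belong to the same gene. The 9 genes with CAGCTG held both Bgn and Dpt, whose log2 fold changes were -0.47 and -0.02 by limma, and Pi16, at 0.13.

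The 8 genes of elastic fibres and microfibrils lay on both sides of 0. Of 7 tested, 4 lay below 0 and 3 above 0, with 0 called on FPKM or on the reads. Fbn1 encodes fibrillin-1, the main microfibril protein. It stood at 0.580, 0.590 and 0.736 FPKM in the controls and at 0.442, 0.406 and 0.401 FPKM in the sedentary libraries, so that the groups did not overlap and no sedentary library reached 0.5 FPKM. On 776 control and 530 sedentary reads its log2 fold change was -0.60 by voom (SE 0.16, adjusted p = 0.0583). By limma the value was -0.31 with an adjusted p of 0.314, on a scale that understates the change of a gene near the added 0.5.

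Loxl1 encodes a lysyl oxidase that crosslinks elastin, and had the highest fold change among the members. It stood at 5.89, 6.32 and 6.16 FPKM in the controls and at 8.58, 6.83 and 8.58 FPKM in the sedentary libraries. The controls varied little, and every sedentary library lay above them. The log2 fold change was 0.38 by voom (SE 0.11, adjusted p = 0.0844), and 0.35 by limma (SE 0.11, adjusted p = 0.207). Without sedentary replicate 2 it was called on the reads, at 0.49 and an adjusted p of 0.0327. With the GC and length trend removed it was 0.20 with an adjusted p of 0.302. The transcript of Loxl1 has a GC content of 61.0%, the highest among the members, whose tested genes had a median of 50.1%, against 49.6% over all tested genes with a value.

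Mfap4, a microfibril-associated glycoprotein, stood at 3.07, 3.13 and 3.87 FPKM in the controls and at 2.49, 1.87 and 2.95 FPKM in the sedentary libraries. The groups did not overlap, and the adjusted p was 0.140 by voom, with a log2 fold change of -0.49 that was -0.30 without sedentary replicate 2. Removal of the GC and length trend gave -0.60 by voom, with an adjusted p of 0.0798. Its gene model meets that of Mapk7 on the opposite strand, whose means were 2.27 and 2.71 FPKM. Mfap5, another microfibril protein and a marker of fibroblasts in connective tissue, stood at 2.74 ± 0.147 and 3.09 ± 0.445 FPKM (SD, n = 3), and its groups overlapped.

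The fibulins, linker proteins of elastic fibres and basement membranes, gave values on both sides of 0. Fbln5, which is needed for elastic fibre assembly, stood at 1.77 ± 0.284 and 1.34 ± 0.211 FPKM, with a log2 fold change of -0.30 by limma. Fbln1, a fibulin of basement membranes and elastic fibres, stood at 1.90 ± 0.177 and 2.17 ± 0.394 FPKM, with a log2 fold change of 0.15, and Fbln2 at 0.239 ± 0.0944 and 0.258 ± 0.0210 FPKM (SD, n = 3). The groups overlapped in each of these 3 genes, and the 2 tested had adjusted p of 0.324 and 0.606 by limma. Eln, which encodes elastin itself, stood at 0.813 ± 0.144 and 0.627 ± 0.162 FPKM with overlapping groups.

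Of 20 other elastic fibre and microfibril genes 11 were tested, and 0 were called on FPKM or on the reads. Their median log2 fold change was -0.15, with 10 below 0. Emilin2, Mfap3 and Fbn2 were the most abundant, and Fbn2, which encodes fibrillin-2, stood at 4.16 ± 0.262 and 3.47 ± 0.148 FPKM (SD, n = 3), and its adjusted p was 0.270 by limma.

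**Figure D3:**
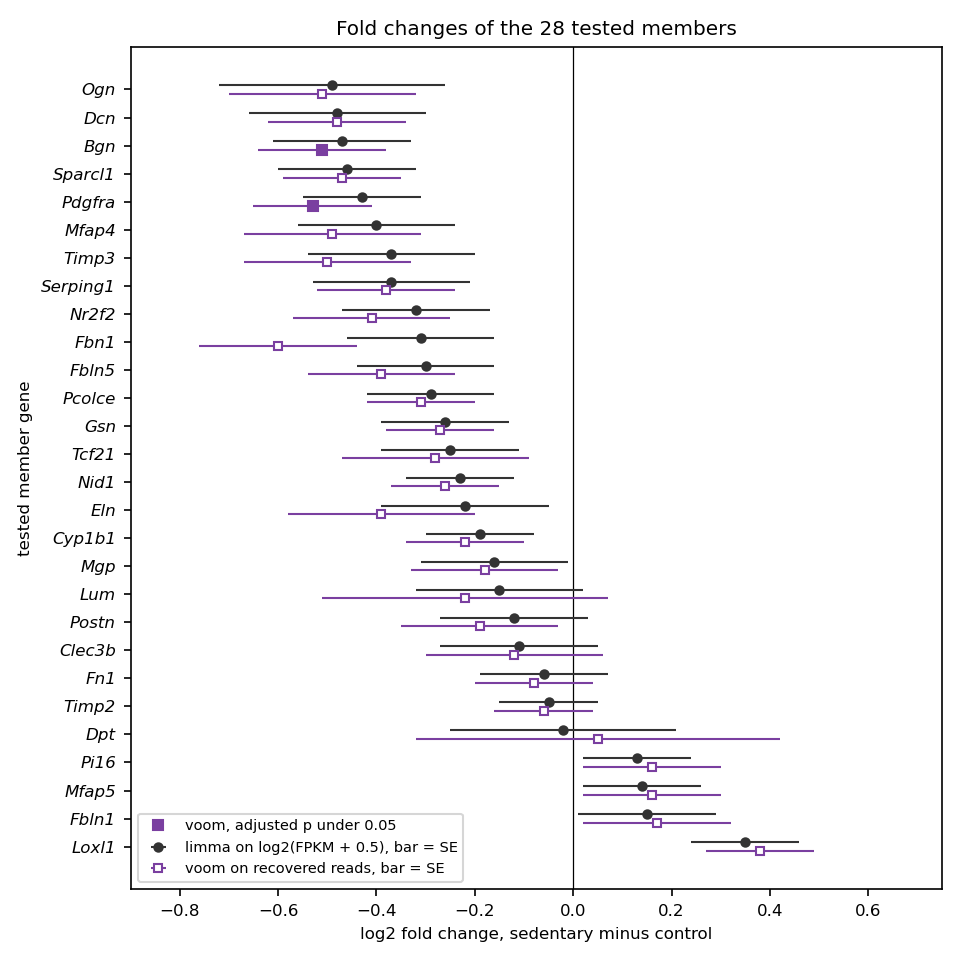
Log2 fold change, sedentary minus control, with its SE for the 28 tested members, ordered by the value on FPKM. Circles are limma on log2(FPKM + 0.5), squares are voom on the recovered reads, and filled squares mark the 2 genes called on the reads, Pdgfra and Bgn. Loxl1 has the highest value and lies apart from the rest.

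Among adhesive, matricellular and basement membrane genes 5 of 6 were tested, all 5 lay below 0 by limma, and 0 were called. Sparcl1, a secreted relative of SPARC also known as hevin, stood at 15.3, 15.6 and 21.6 FPKM in the controls and at 11.5, 13.7 and 12.2 FPKM in the sedentary libraries. The groups did not overlap, and control replicate 3 was again the highest. The log2 fold change was -0.47 by voom (SE 0.12, adjusted p = 0.0563), and -0.31 without control replicate 3 (adjusted p = 0.261). Without control replicate 2 or sedentary replicate 2 it was called, at adjusted p of 0.0180 and 0.0349.

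Nid1 encodes nidogen-1, which links laminin to collagen IV. It stood at 4.18, 4.07 and 4.73 FPKM in the controls and at 3.13, 3.82 and 3.91 FPKM in the sedentary libraries. The groups did not overlap, but the adjusted p was 0.324 by limma and 0.204 by voom, with a log2 fold change of -0.26 on the reads. Lama4, a laminin chain of vessels and stroma, stood at 0.368 ± 0.0856 and 0.315 ± 0.0506 FPKM (SD, n = 3), below the filter.

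Fn1, which encodes fibronectin, stood at 1.51 ± 0.0421 and 1.44 ± 0.231 FPKM, and Postn, which encodes periostin of remodelling matrix, at 0.753 ± 0.0901 and 0.657 ± 0.0970 FPKM (SD, n = 3). Both had overlapping groups. Fn1 ranged from 1.49 to 1.56 FPKM in the controls and from 1.26 to 1.70 FPKM in the sedentary libraries. Dpt, which encodes dermatopontin, varied most, from 0.355 to 1.07 FPKM among the controls, on 116 control and 115 sedentary reads. Its log2 fold change was -0.02 by limma and 0.05 by voom. Its gene model meets that of Gm32569 on the opposite strand, whose means were 0.56 and 0.641 FPKM.

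Of 16 other basement membrane genes 14 were tested, with a median of -0.07 that was 0.01 without sedentary replicate 2, and 2 fell on the reads. Lamc3, a laminin gamma chain, stood at 5.77 ± 1.58 and 3.48 ± 0.437 FPKM (SD, n = 3, voom adjusted p = 0.0285) and Lamb1, a laminin beta chain, at 2.59 ± 0.633 and 1.68 ± 0.183 FPKM (voom adjusted p = 0.0433). Both calls held without control replicate 2 or sedentary replicate 2 and were lost without any other library, with adjusted p of up to 0.0990 and 0.211. Sparc, a matricellular protein that Sertoli cells also make, stood at 98.1 ± 1.66 and 110.5 ± 12.1 FPKM, and its adjusted p was 0.354 by limma. Of 15 other matricellular and adhesive genes 7 were tested, with a median of -0.28, which was -0.14 without sedentary replicate 2 and -0.15 without control replicate 3. Ctgf, a connective tissue growth factor, fell on the reads from 11.2 ± 1.74 to 7.75 ± 0.943 FPKM (SD, n = 3, voom adjusted p = 0.0389), a call that held without control replicate 2 and was lost without any other library, up to 0.194.

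Protease inhibitors and the procollagen enhancer gave 0 calls among 5 tested members. Timp2, an inhibitor of matrix metalloproteinases and the most abundant member, had a mean of 64.8 ± 8.41 FPKM among controls and 62.2 ± 4.86 FPKM among sedentary libraries (SD, n = 3). Its log2 fold change was -0.05 with an SE of 0.10 by limma, and the groups overlapped. Its gene model overlaps that of BC100451 on the same strand, whose means were 303.8 and 351.4 FPKM, so part of its reads may belong there. Timp3, a matrix-bound inhibitor, stood at 1.69, 1.31 and 2.30 FPKM in the controls and at 1.32, 1.27 and 1.08 FPKM in the sedentary libraries, and the groups overlapped. Its log2 fold change was -0.50 with an adjusted p of 0.104 by voom, and -0.30 without control replicate 3.

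Pcolce, which encodes an enhancer of procollagen processing, stood at 19.5 ± 2.70 and 15.8 ± 2.38 FPKM (SD, n = 3), with overlapping groups and an adjusted p of 0.140 by voom. Its log2 fold change by voom was -0.31, and -0.40 with the GC and length trend removed (adjusted p = 0.0578). Its model overlaps that of Fbxo24 on the same strand, whose means were 40.4 and 39.4 FPKM. Serping1, the inhibitor of complement C1, stood at 18.7 ± 3.97 and 14.3 ± 2.39 FPKM, and the adjusted p was 0.130 by voom. Its log2 fold change by voom was -0.38, and -0.46 with the GC and length trend removed (adjusted p = 0.0816). Pi16, a peptidase inhibitor that marks a fibroblast population in many mouse tissues, stood at 2.42, 2.49 and 2.49 FPKM in the controls and at 2.70, 2.53 and 3.06 FPKM in the sedentary libraries. All 3 sedentary libraries lay above the controls, by little in replicate 2, and the adjusted p was 0.529 by limma with a log2 fold change of 0.13.

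Of 20 other matrix proteases and inhibitors 12 were tested, with a median of -0.22, which was -0.10 without sedentary replicate 2 and -0.12 without control replicate 3. Adamts5, an aggrecanase, fell on the reads from 2.43 ± 0.751 to 1.42 ± 0.181 FPKM (SD, n = 3, voom adjusted p = 0.0368), a call that held without control replicate 2 or sedentary replicate 2 and was lost without any other library, up to 0.154. Mmp14, a membrane-bound metalloproteinase, stood at 4.62 ± 0.460 and 5.66 ± 0.919 FPKM, and its adjusted p was 0.331 by limma. Of 12 genes of transforming growth factor beta signalling 11 were tested, with a median of -0.02, between -0.08 and 0.01 with 1 library left out, and 0 calls on FPKM or on the reads.

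The remaining members gave 0 calls. Gsn, which encodes the actin-severing protein gelsolin, stood at 46.4 ± 7.34 and 38.5 ± 5.41 FPKM. Mgp, an inhibitor of calcification, stood at 9.07 ± 0.986 and 8.17 ± 1.89 FPKM, and Clec3b, which encodes tetranectin, at 5.55 ± 1.21 and 5.06 ± 0.842 FPKM. Cyp1b1, a cytochrome P450 of stromal and steroid-responsive cells, stood at 4.52 ± 0.515 and 3.88 ± 0.379 FPKM (SD, n = 3). The groups overlapped in all 4 genes. Their log2 fold changes ranged from -0.26 for Gsn to -0.11 for Clec3b by limma, and the lowest adjusted p was 0.335. By voom Gsn was at -0.27 (adjusted p = 0.185), and at -0.40 with the GC and length trend removed (adjusted p = 0.0620).

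How many members passed on the reads turned on which libraries entered the fit. Voom called 0 members when replicate 1 or 3 of the controls, or replicate 1 or 3 of the sedentary group, was left out, against 0.396%, 0.219%, 0.26% and 0.115% of all genes. Without control replicate 2 it called 6 members against 5.51% of all genes. These were Dcn, Sparcl1, Bgn, Pdgfra, Timp3 and Fbn1, all lower. Without sedentary replicate 2 it called 4 members against 4.06%, with Sparcl1, Ogn and Pdgfra lower and Loxl1 higher. Summed reads in place of the deposited totals gave 4 members against 2.23% of all genes, and sample weights gave 7 against 9.05%. A block for the replicate number gave 4 against 1.98%. Among the genes with a GC value voom called 1 member, Pdgfra, against 0.862%, and after removal of the GC and length trend 2, Pdgfra and Bgn, against 0.807%. In these 2 fits the median log2 fold change of the tested members was -0.27 before removal and -0.32 after it.

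**Figure D4:**
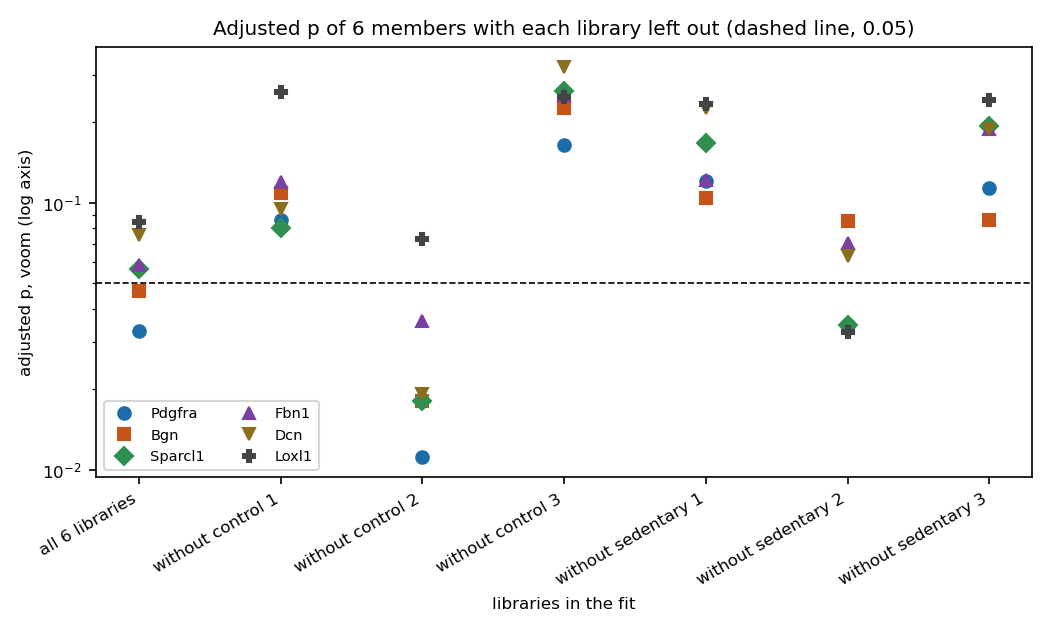
Adjusted p by voom on the recovered reads, on a log axis, for 6 members in the fit of all 6 libraries and in fits that each leave out 1 library; the dashed line is 0.05. Pdgfra and Bgn lie under the line with all 6 libraries, and all 6 genes lie above it without replicate 1 or 3 of either group.

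The other stromal and interstitial cell lists of the same libraries are given beside the members, as values. Collagen genes had a median log2 fold change of -0.34 over 12 tested, and of -0.17 without sedentary replicate 2, with 1, Col3a1, called lower on the reads. Col3a1, a fibrillar collagen, stood at 2.00 ± 0.605 and 1.17 ± 0.297 FPKM (SD, n = 3, voom adjusted p = 0.0460), and the call held without control replicate 2 and was lost without any other library, up to 0.221. Further fibroblast markers had a median of -0.16 over 10 tested, and of -0.07 without control replicate 3, with 1, Cd34, called lower on the reads. Of the 10, 7 lay below 0 and 3 above 0. The most abundant were higher in the sedentary group and were not called. These were Vim, at 15.3 ± 0.881 and 16.9 ± 2.14 FPKM, and Scara5, at 6.01 ± 0.216 and 6.71 ± 0.369 FPKM. Ly6a, the next, was lower, at 2.78 ± 0.0882 and 2.42 ± 0.182 FPKM (SD, n = 3). Cd34, a surface protein of stromal progenitors and endothelium, stood at 2.29 ± 0.611 and 1.4 ± 0.268 FPKM (voom adjusted p = 0.0443), and its call held without control replicate 2 and was lost without any other library, up to 0.218. Peritubular and smooth muscle markers had a median of -0.34 over 13 tested, with 12 below 0, and 1 call lower on the reads, Cald1, an actin-binding protein, at an adjusted p of 0.0245. That call held without control replicate 2 or sedentary replicate 2 and was lost without any other library, up to 0.120. In 7 of the 13 genes, or 53.8%, all sedentary libraries lay below all controls, against 10.8% of all tested genes. Acta2, smooth muscle actin, stood at 32.5 ± 5.84 and 22.6 ± 4.81 FPKM (SD, n = 3), with a voom adjusted p of 0.0567. The summed level of the list overlapped between the groups, at 305.4 to 321.5 FPKM in control and 303.0 to 342.6 FPKM in sedentary libraries. Most of it was Actg2, an enteric smooth muscle actin, at 202.4 ± 17.5 and 234.5 ± 10.7 FPKM (voom adjusted p = 0.157). Actg2 was the 1 tested gene of the list above 0, at 0.21 by limma. The sum thus mainly follows Actg2 and not the 12 genes below 0. Which cells of the testis expressed Actg2 was not tested.

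Leydig cell markers had a median of -0.18 over 16 tested and of -0.05 without control replicate 3, which was the highest library for 12 of the 16. Their summed level was 1776.6 to 2398.7 FPKM in control and 1593.8 to 2172.8 FPKM in sedentary libraries. Of them 1 was called on the reads, Star, which moves cholesterol into mitochondria, at 37.2 ± 9.40 and 22.5 ± 0.359 FPKM (SD, n = 3) and lower with a voom adjusted p of 0.0148. The call was lost without sedentary replicate 3 (0.0849).

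Endothelial markers had a median of -0.05 over 6 of 14 tested and 0 calls, and the median was 0.02 without sedentary replicate 2. Of 8 pericyte markers 1 was tested, with a log2 fold change of -0.12 that ranged from -0.23 to -0.01 with 1 library left out. The summed levels of both lists overlapped between the groups, at 11.2 to 12.5 and 9.85 to 13.7 FPKM for endothelium and 3.04 to 4.49 and 2.97 to 3.77 FPKM for pericytes. Macrophage markers had a median of 0.26 over 8 tested, -0.09 without control replicate 2 and 0.63 without control replicate 3, with 0 calls. Their summed level ranged from 18.2 to 49.6 FPKM among the controls and from 32 to 48 FPKM among the sedentary libraries. Mesothelial and capsule markers, with 3 of 9 tested, had a median of 0.22 and 0 calls, and a summed level of 10.5 to 12 FPKM in control and 13.2 to 13.9 FPKM in sedentary libraries. Most of that sum came from Wt1, at 5.28 ± 0.296 and 6.22 ± 0.257 FPKM, and Krt8, at 4.41 ± 1.28 and 5.90 ± 0.310 FPKM (SD, n = 3). Lrrn4, the other tested gene, stood at 0.907 ± 0.186 and 0.926 ± 0.263 FPKM. The higher sum thus mainly follows Wt1 and Krt8 and cannot be read as a level of the capsule. Which cells of the testis expressed these 2 genes was not tested.

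Sertoli cell markers had a median of 0.27 over 17 tested, with 2, Amhr2 and Cst9, called higher on the reads. Elongating spermatid markers had a median of 0.22 over 13 tested, with 2, Prm2 and Tnp2, called higher on the reads. All 4 calls held when control replicate 2 or sedentary replicate 2 was left out, and that of Tnp2 also when sedentary replicate 1 was. They were lost when any other library was, where the highest adjusted p were 0.113, 0.185, 0.186 and 0.140 for Amhr2, Cst9, Prm2 and Tnp2. Of 16 epididymis markers, a neighbouring tissue, 5 were at 0 in all libraries and 5 were tested, with a median of 0.10, between 0.04 and 0.15 with 1 library left out, and 0 calls. Their summed level was 656.2 to 676.5 FPKM in control and 696.9 to 746.3 FPKM in sedentary libraries, most of it from Cst8, Clu and Ptgds, which the testis also expresses. No gene of the other cell type lists was at 0 in all libraries. The medians of the Sertoli and spermatid lists thus had the opposite sign to that of the members, and their part in the members' values was not tested.

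**Figure D5:**
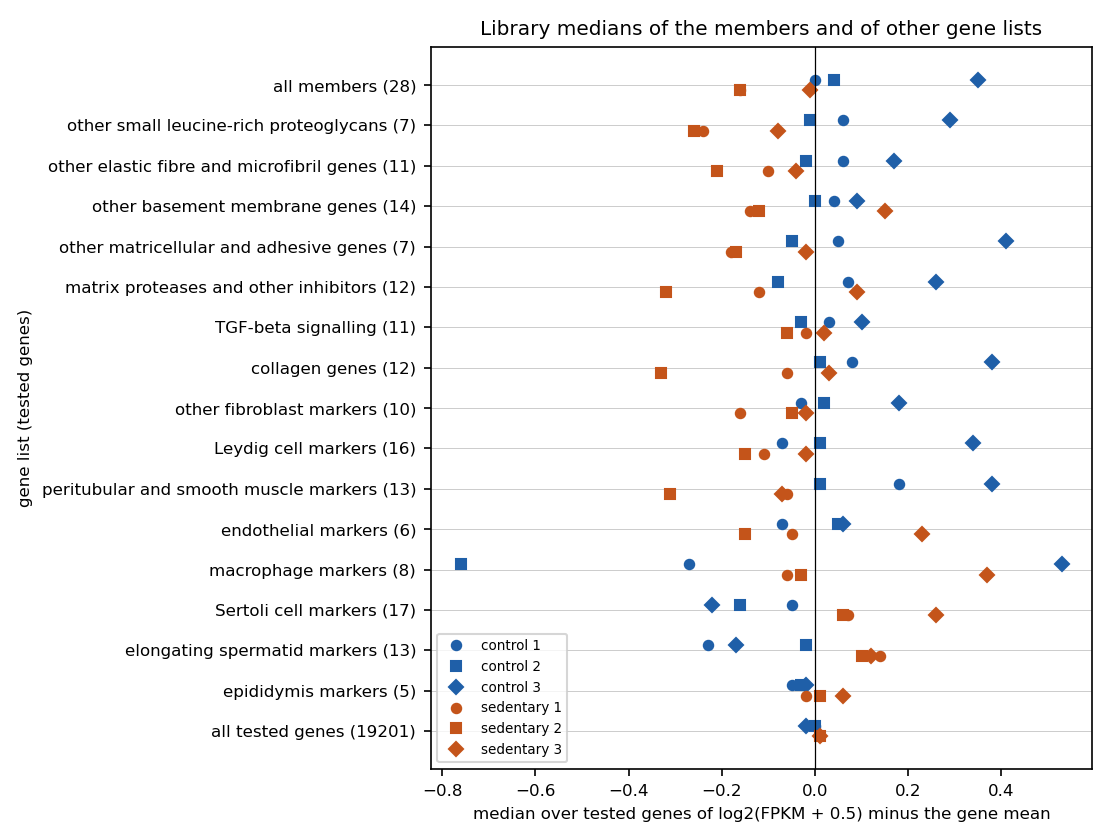
Median over the tested genes of each list of log2(FPKM + 0.5) minus the gene's mean over 6 libraries, 1 symbol per library, with the number of tested genes in brackets; blue is control, orange sedentary, and the symbol gives the replicate. For the members, sedentary replicates 1 and 2 coincide at -0.16 and control replicate 3 stands at 0.35.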

How the data were processed

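The authors deposited 1 table of FPKM values, reads per kilobase of gene scaled to a total for each library, for 44065 genes in 6 libraries, with gene lengths and coordinates. HISAT2, StringTie and DESeq2 and the builds mm10 and mm39 are named in the submitters' processing notes, without versions or roles. Identifiers come from a C57BL/6NJ annotation and 0 of the 32 members start within 1000 bases of their GRCm38 position, so the table's coordinates are not printed. Each FPKM value times its gene's length was a whole number of a library's smallest step (100% of values, tolerance 0.001), which gave the reads. Of counts from 1 to 20, 56.204% to 59.035% were even, so mates were probably counted separately and a read is not 1 molecule. No 2 libraries of a group were near-identical, as repeat copies of 1 library would be (chi-square per degree of freedom at least 7.16). The p-values set the difference between the groups against the spread between libraries within a group, moderated over all tested genes.

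Log2(FPKM + 0.5) of genes at 0.5 FPKM or more in at least 3 libraries was fitted in R 4.3.3 with limma 3.58.1 (variance trend, two-sided), with Benjamini-Hochberg adjustment over all 19201 genes. A gene is called at an adjusted p under 0.05. The added 0.5 understates the fold change of low genes. Voom took the reads and the totals implied by the deposited values. GC content came from the longest GENCODE M21 transcript per symbol. It was found for 75.5% of tested genes, under 80%, so a GC check over all of them is void, but for all 28 tested members, which were read in fits over 14504 genes. The members and all lists were chosen with earlier results of these data known. Every member is described. From other lists, called genes and the 3 most abundant tested genes could be named. Of 279 list symbols 4 were matched by an older name and 7 were not used here. The fits were tested on simulated data. Alternatives changed 1 choice at a time, except that removal of the GC and length trend also limits the fit to the genes with a GC value.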

Additional observations from a re-analysis of the deposited data

How the results depend on the processing

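The median log2 fold change of the tested members moved by less than the spread of library medians within groups (SD 0.149) under every alternative. That spread includes control replicate 3, which stood apart, so it is a wide measure beside a median of -0.24. The median ranged from -0.38, by voom without control replicate 1, to -0.17, by limma without control replicate 3. No member was called by limma on FPKM under any setting, and 0 genes were called with a replicate block or with the GC and length trend removed (4 over the same genes before removal), 1 with no filter, 3 with a filter at 1 FPKM, 16 with array weights and 0 to 2 with 1 library left out, against 5. By voom the genes and members called were 277 and 2 as planned. By alternatives chosen after seeing the data they were 429 and 4 with summed reads as totals, 1737 and 7 with sample weights, 381 and 4 with the replicate block, 117 and 2 with the GC and length trend removed, and 125 and 1 over genes with a GC value. Leaving out control replicates 1, 2 and 3 gave 76, 1058 and 42 genes, and sedentary replicates 1, 2 and 3 gave 50, 779 and 22, with 0, 6, 0, 0, 4 and 0 members. The cause was not tested.

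Values with the sign reversed, as log2 fold changes: Fn1 was 0.00 under quantile normalization and ranged from -0.15 to 0.01 with 1 library left out, at 0.01 without sedentary replicate 1 by limma and by voom. Postn was 0.10 by limma and 0.07 by voom with the GC trend removed. Dpt was 0.08 under quantile normalization, 0.24 with array weights and -0.23 to 0.20 with 1 library left out. By voom Dpt was 0.05, and 0.08, 0.45, 0.07 and 0.19 without control replicates 2 and 3 and sedentary replicates 2 and 3, 0.52 with sample weights, 0.01 with the GC trend removed and 0.05 over genes with a GC value. With 1 library left out Timp2 was -0.13 to 0.05 and Clec3b -0.23 to 0.04 by limma, and without control replicate 3 they were 0.04 and 0.05 by voom.

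TPM scaling moved the median of all genes to -0.09 and that of the members to -0.34. Summed reads as totals moved the members' median by voom from -0.27 to -0.35. Replicate numbers were shared between groups but same-numbered samples did not deviate together (correlations -0.0674, -0.0875 and -0.0346), so the block is given only as an alternative. The planned edgeR and DESeq2 fits were not run, since the deposited unit is FPKM. Pdgfrb, Thy1, Lum, Fbln2 and Dpt had the fewest reads, between 74 and 193 a group, which limits the precision of their values.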
